A study of Mus musculus with 6 samples.

Results

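Gm10616, Polg, Gm48565, Gm12941 and Gm14190 are 5 mouse genes chosen by their measured difference in signal between heated and control cells, which for 4 of them was a large rise. They are 5 of the 55538 genes in the table, found by their Ensembl identifiers, and all 5 had a mean signal of at least 1 over the libraries. Because measured values chose them, their levels and differences are given as a description, with no test. Polg was named with them as the neighbour of Gm10616, and its own signal was lower after heat, not higher. The cells were primary cortical neurons of C57BL/6 mice, taken at embryonic day 14.5 and given 2 h of rest in culture. The control was kept at 37 °C for 60 min, and the heated groups were held at 42 °C for 15 or 60 min, with 2 libraries of total RNA in each of the 3 groups. There was no control of 15 min, so heat and time in culture cannot be told apart in the comparisons that involve the 15 min group.

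Polg encodes the catalytic subunit of the DNA polymerase that copies the mitochondrial genome, working with the accessory subunit Polg2, the helicase Twnk and the single-strand binding protein Ssbp1. Hspa8, which lies upstream of Gm48565, encodes the constitutively made Hsc70 chaperone and carries small nucleolar RNA genes in its introns. Gm10616 and Gm48565 belong to the annotation class TEC, which stands for loci still to be experimentally tested, so neither has an assigned product. Gm12941 is annotated as a processed pseudogene, a copy of a spliced RNA put back into the genome, and Gm14190 as a very short protein coding gene. Heat shock raises chaperone genes through the factor Hsf1, and RNA that continues past the ends of genes has been described in stressed mammalian cells.

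Values are the authors' normalised signal, which is scaled for transcript length and library, and differences are between group means of log2(signal + 1). The 6 columns summed to between 892768 and 1056383. Control library s1 had 29309 genes at a signal of 1 or more, against 19035 to 21796 in the other 5. Marker genes of neurons summed to 1606 to 2298 per library and those of progenitors to 1983 to 2830, so the cultures labelled as neurons held RNA of both, while astrocyte, oligodendrocyte, microglia, endothelial and fibroblast markers each stayed at or below 48.6. Erythroid markers summed to 137 to 319.5, with both extremes outside the 60 min group, and their part in the results was not tested. The median difference over the 21954 genes that reached a mean of 1 was -0.12 between 60 min and control, and 0.043 after median-of-ratios scaling. In bulk RNA, fewer cells of a type and less RNA per cell cannot be told apart.

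Gm10616 (ENSMUSG00000108599) was nearly silent at 37 °C and had a higher signal at each time at 42 °C. It was at 1.503 and 0.921 in the control libraries, at 9.29 and 8.67 after 15 min, and at 86.0 and 55.3 after 60 min. The groups were in the order control, 15 min, 60 min, with no overlap. The group means were 1.21 ± 0.412, 8.98 ± 0.437 and 70.6 ± 21.7 (SD, n = 2 each), or 7.41-fold and 58.3-fold the control. The difference from control was 2.19 at 15 min and 5.00 at 60 min on the log2(signal + 1) scale. Only 4 of the 21954 genes had a larger difference at 60 min, whereas at 15 min Gm10616 ranked 37 from the top. Among the 5 genes, a difference of at least 2 at 15 min was also reached by Gm12941.

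Polg (ENSMUSG00000039176) moved the other way from Gm10616. Its signal was 74.3 and 76.2 in the control libraries, 58.0 and 58.7 after 15 min, and 44.7 and 42.5 after 60 min. The groups did not overlap and lay close together within each pair. The group means were 75.25 ± 1.32, 58.35 ± 0.474 and 43.6 ± 1.57 (SD, n = 2 each), so the 60 min mean was 0.580 of the control. The difference was -0.36 at 15 min and -0.77 at 60 min, and after median-of-ratios scaling -0.021 and -0.575. The lower value at 15 min thus depended on the scaling, and the lower value at 60 min was kept under it.

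Both genes lie on chromosome 7, head to head. In the GENCODE M21 annotation, Gm10616 is an unspliced locus of 2127 bases on the plus strand and Polg spans 20132 bases on the minus strand, and their starts are 47 bases apart. After the first 10 bases of Gm10616 comes a tRNA gene of 73 bases in RefSeq, n-TRtcg5, an arginine tRNA with the anticodon TCG. The same tRNA lies in the promoter window of Polg, on the other strand, and ends 145 bases before the Polg start that RefSeq gives. RefSeq also has a longer extent of Polg that covers 1503 bases (70.7%) of Gm10616 on the opposite strand. The use of strand in the authors' counting is not given in the sources used here, so reads of Gm10616, of the tRNA and of a longer Polg RNA cannot be told apart. The sequences below, 5′ to 3′, show this shared start region, first the opening 120 bases of the Gm10616 transcript with the tRNA in capitals, then the 300-base Polg promoter window from RefSeq on build GRCm38.p6, minus strand, with the complement of the tRNA in capitals.
Gm10616: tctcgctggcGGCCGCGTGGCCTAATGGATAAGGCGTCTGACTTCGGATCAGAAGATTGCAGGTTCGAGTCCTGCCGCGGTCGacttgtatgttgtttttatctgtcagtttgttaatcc
Polg: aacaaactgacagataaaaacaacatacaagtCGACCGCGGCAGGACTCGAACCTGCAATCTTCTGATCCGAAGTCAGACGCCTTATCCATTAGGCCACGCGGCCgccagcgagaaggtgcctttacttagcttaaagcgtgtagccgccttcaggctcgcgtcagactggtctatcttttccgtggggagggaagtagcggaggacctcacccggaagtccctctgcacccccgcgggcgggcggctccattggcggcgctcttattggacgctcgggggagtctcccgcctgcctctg

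**Figure D1:**
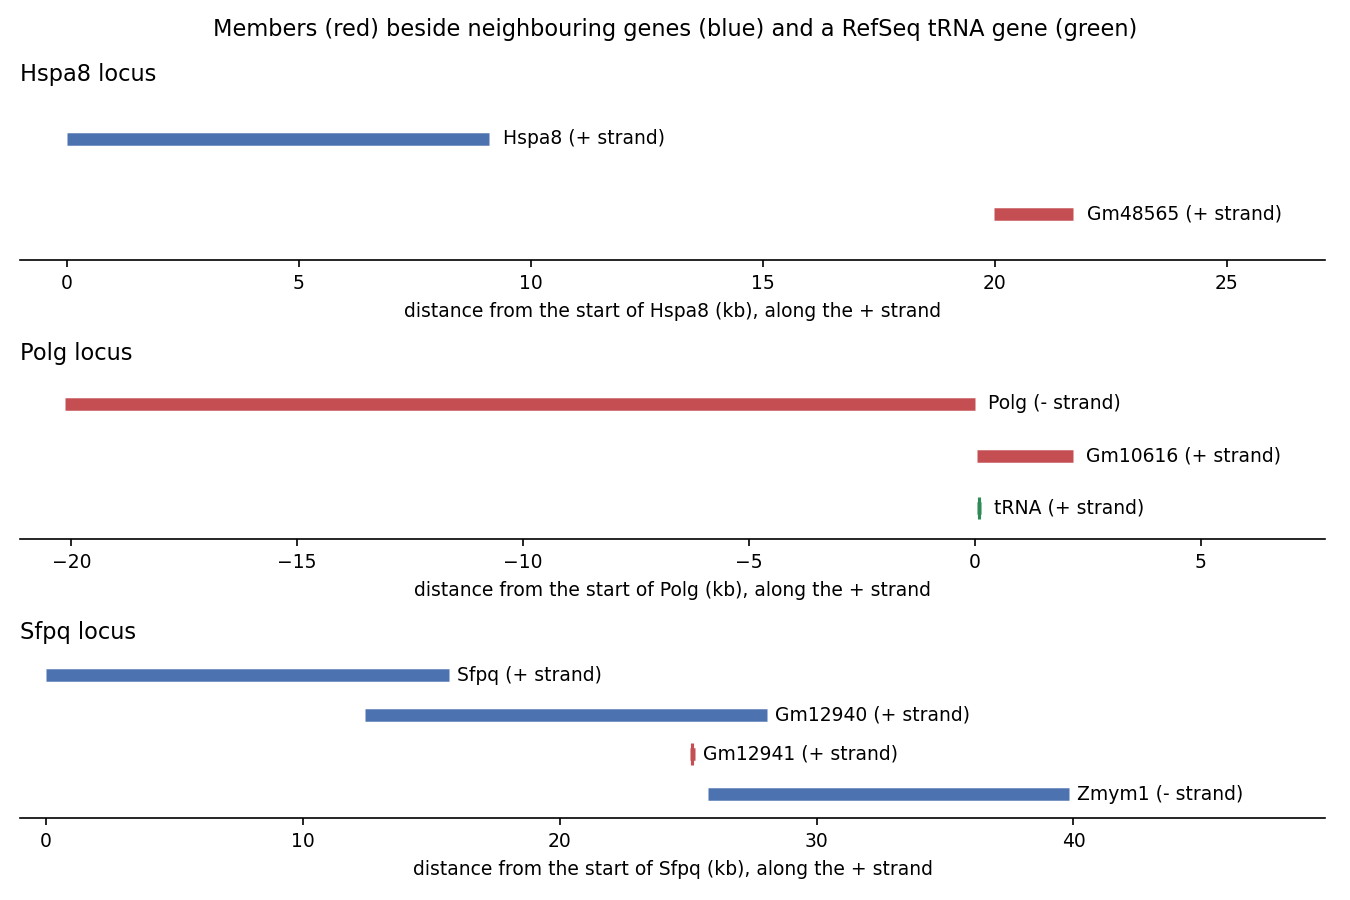
Position of Gm48565, Polg, Gm10616 and Gm12941 (red) beside neighbouring genes (blue) and a RefSeq tRNA gene (green), in kb from the start of Hspa8, Polg or Sfpq along the plus strand. Gm48565 starts 10882 bases past the end of Hspa8, Gm10616 starts 47 bases from the start of Polg, and Gm12941 lies within the Gm12940 locus, 9370 bases past the end of Sfpq.

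Set against Polg in the same library, Gm10616 passed from a small share to a larger signal than its neighbour. It was 2.02% and 1.21% of the Polg signal in the control libraries, 16.0% and 14.8% after 15 min, and 192% and 130% after 60 min. The difference of Gm10616 exceeded that of Polg by 2.55 at 15 min and by 5.77 at 60 min (log2). Fanci, a Fanconi anemia gene on the strand of Gm10616, ends 16145 bases before it and overlaps the tail of Polg. Fanci was at 13.6 and 7.04 in the control libraries and at 10.0 and 6.13 after 60 min, a difference of -0.29 (limma, adjusted p = 0.887). Of the 7807 words of 31 bases in the main Polg transcript, 750 (9.61%) also occur in another gene, 738 of them in Fanci, while Gm10616 shares 1 of 2097.

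Polg was next set among the other genes of mitochondrial DNA maintenance. Of 26 such genes, 0 passed limma at an adjusted p of 0.05 between 60 min and control, where 0.041% of all genes tested did. At an unadjusted p under 0.05 there were 5 of the 26, 3 of them lower, against 1830 of 21954 genes (8.34%). That count of 5 was 1 after median-of-ratios scaling, 1 and 3 without 60 min library s1 or s2, and 7 without control library s1. Their median difference was -0.12, the same as that of all genes, with 17 values lower and 9 higher, and it was 0.062 after median-of-ratios scaling. Tfam, the factor that packages and transcribes mitochondrial DNA, had means of 88.8 ± 0.456 in control and 103 ± 17.1 after 60 min (SD, n = 2 each). The nucleotide carrier Slc25a4 had means of 175 and 196, Ssbp1 of 73.1 and 76.65, and the matrix protease Lonp1 of 55.2 and 69.25. All 4, the most abundant of the list, had positive differences where Polg had a negative one, and none passed the test (adjusted p 0.767 to 0.975 by limma).

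Of the direct partners of Polg in the replisome, the helicase and the accessory subunit had values near those of the control. Twnk was at 15.9 and 14.9 in the control libraries and at 15.2 and 12.9 after 60 min, and Polg2 at 4.37 and 5.15 against 4.27 and 4.79. For both, the values of the groups overlapped. The lowest difference of the list was that of Polrmt, the mitochondrial RNA polymerase, at 11.5 and 20.2 in the control libraries, 11.4 and 11.8 after 15 min, and 5.45 and 7.31 after 60 min (-1.15 ± 0.301 SE, adjusted p = 0.427 by limma). Tefm and Top3a had differences of -0.78 and -0.76, near the -0.77 of Polg. Tefm was at 12.2 and 13.3 in the control libraries and at 6.76 and 7.33 after 60 min. Top3a was at 10.6 and 13.3 against 6.45 and 6.76. In the other direction, Mterf2 had a difference of 0.77 and Tfb2m of 0.61. At 15 min, 0 of the 26 genes passed limma, where 0.0% of all genes did, and 2 of the 26 and 868 of all genes (3.95%) had an unadjusted p under 0.05. Of 13 other DNA polymerases that were matched and tested, 0 passed limma at 60 min and 0 had an unadjusted p under 0.05. Their median was 0.015, with 7 values higher and 6 lower. Polb, the repair polymerase beta, had means of 48.75 and 56.5, the translesion polymerases Rev1 and Rev3l of 44.6 and 41.5 and of 25.1 and 39.3, and Pole of 21.9 and 24.55. Between 15 and 60 min 0.0182% of all genes passed limma, and 0 of the 26 and 0 of the 13 did so, with 5 of the 26, all lower, and 0 of the 13 at an unadjusted p under 0.05, against 6.19% of all genes.

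Gm48565 (ENSMUSG00000110982) was at the low end of the measured range until 60 min. It was at 1.04 and 0.347 in the control libraries, at 0.925 and 0.877 after 15 min, and at 21.96 and 38.1 after 60 min. Both 60 min libraries stood above all others, and the 15 min values lay within the range of the control. The group means were 0.694 ± 0.491, 0.901 ± 0.0335 and 30.05 ± 11.4 (SD, n = 2 each), the last being 43.3-fold the control. That fold rests on low control values, and it was 86.7 without control library s1 and 28.9 without control library s2. The difference was 4.18 at 60 min, rank 8 of all genes tested. At 15 min it was 0.20, and it was 0.50 without control library s1 and -0.10 without control library s2.

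Gm48565 is a locus of 1705 bases on the plus strand of chromosome 9. It starts 10882 bases past the end of Hspa8 on the same strand, or 15769 bases past the end of the main Hspa8 transcript. Hspa8 itself was abundant throughout, at 1030 and 1150 in the control libraries, 1779 and 1576 after 15 min, and 2331 and 2386 after 60 min. Its groups were in the order control, 15 min, 60 min without overlap. The difference was 1.12 ± 0.208 (SE) at 60 min (limma, adjusted p = 0.277) and 0.62 at 15 min (limma, adjusted p = 0.747), so neither passed the test. Gm48565 was 0.101% and 0.0301% of the Hspa8 signal in the control libraries, 0.0520% and 0.0557% after 15 min, and 0.942% and 1.60% after 60 min. The 15 min shares lay within the range of the control, and both 60 min shares lay above all others. At 60 min the difference of Gm48565 exceeded that of Hspa8 by 3.06. The small nucleolar RNA genes Snord14c, Snord14d and Snord14e in the Hspa8 introns are not analysed here.

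None of the 1675 words of 31 bases in the Gm48565 transcript occurs in another gene's transcript. Part of it, however, resembles parts of transcripts of 1722 other genes at 80% identity or more over at least 100 bases, the closest at 87.2%. The median first and last bases of these matches were 98 and 238. Bases 61 to 300 of the transcript, from the GENCODE M21 sequences, plus strand, 5′ to 3′, show the stretch between these medians, in capitals, between its flanks.
Gm48565: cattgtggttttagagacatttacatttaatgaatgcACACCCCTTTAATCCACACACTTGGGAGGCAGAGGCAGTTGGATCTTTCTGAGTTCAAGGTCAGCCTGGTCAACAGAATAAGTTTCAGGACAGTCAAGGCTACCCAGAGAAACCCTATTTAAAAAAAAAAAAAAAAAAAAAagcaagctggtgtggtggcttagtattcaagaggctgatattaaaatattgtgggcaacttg

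**Figure D2:**
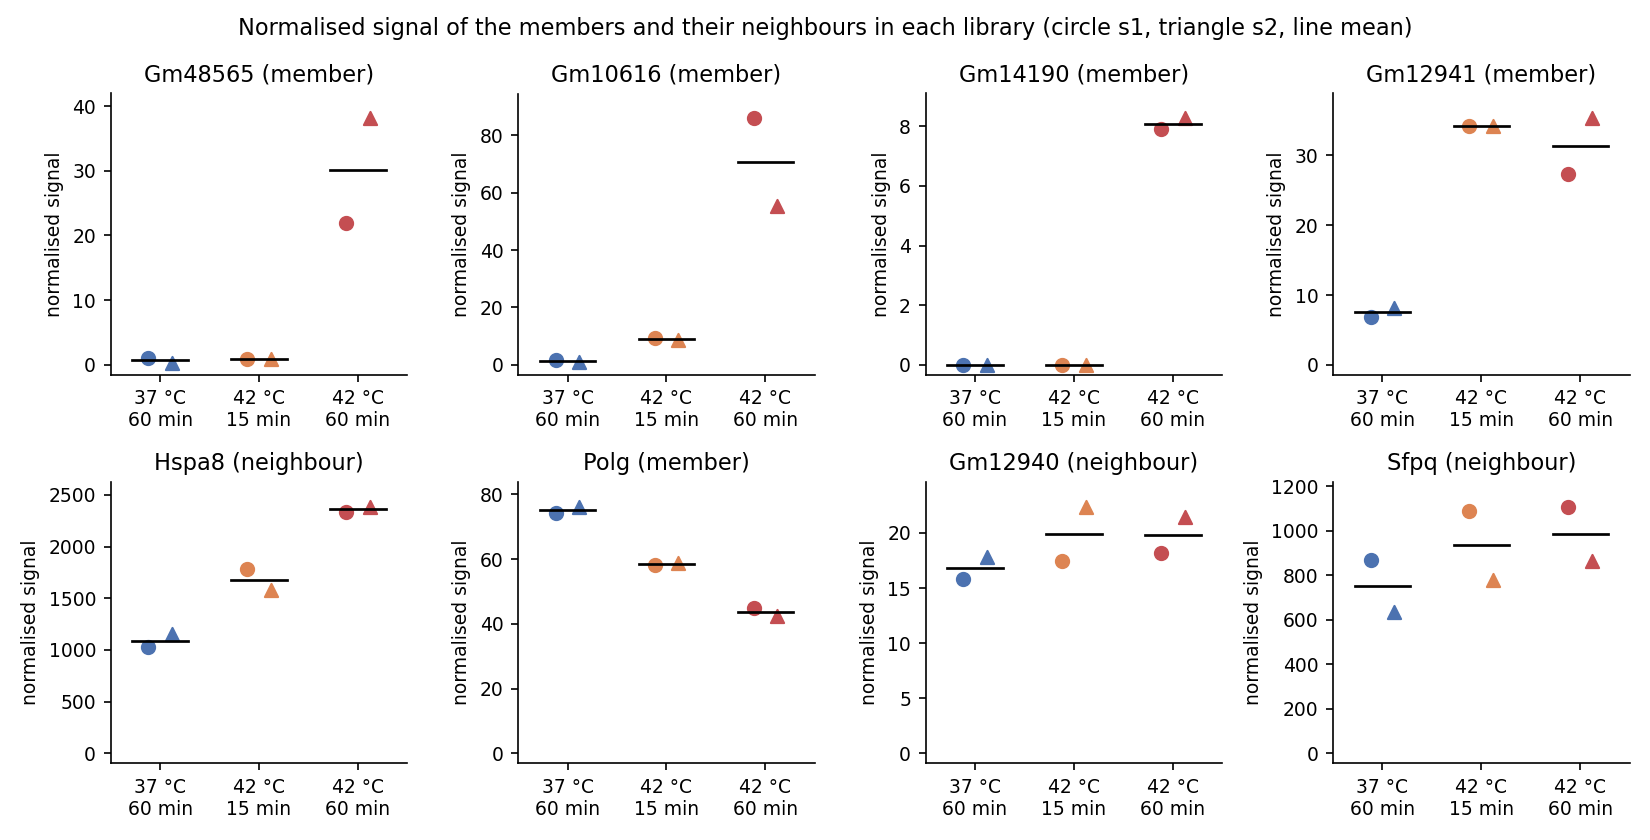
Normalised signal (vertical axes, each including 0) of the 5 genes and of the neighbours Hspa8, Gm12940 and Sfpq in each of the 6 libraries, by group, with a line at each mean (n = 2). Gm48565 and Gm14190 are high in the 60 min libraries only, Gm10616 is higher at each time, Gm12941 is high at both times, and Polg is lower at each time.

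**Figure D3:**
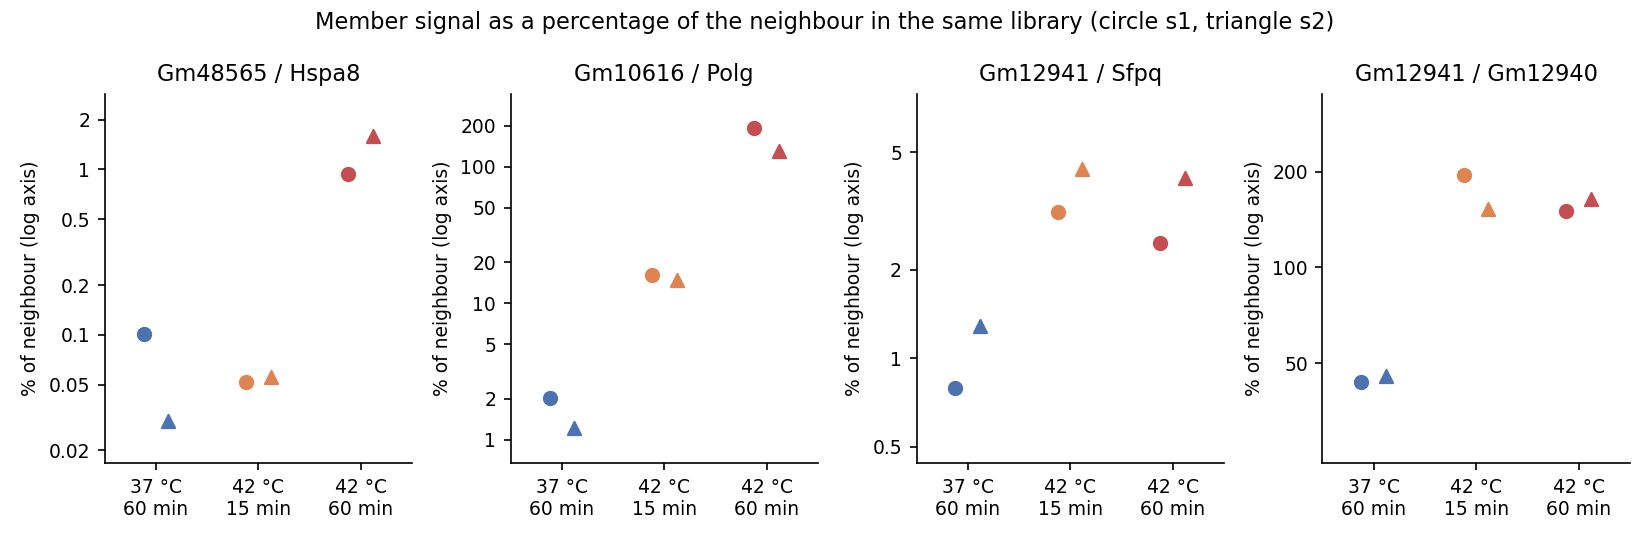
Signal of Gm48565, Gm10616 and Gm12941 as a percentage of a neighbour's signal in the same library, on log axes, by group. Gm10616 is at 1.21% and 2.02% of Polg in control and at 130% and 192% after 60 min. Gm48565 is at 0.0301% and 0.101% of Hspa8 in control and at 0.942% and 1.60% after 60 min.

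Other loci downstream of coding genes gave a frame for Gm48565. There were 321 tested non-coding loci that start within 5 kb past a coding gene on its strand. Of these, 125 (38.9%) had a higher value at 60 min, against 37.3% of all genes. A difference of at least 1 was reached by 9 (2.80%), against 2.15% of all genes. By class, that share was 0.399% in coding genes, 2.97% in TEC loci, 2.06% in long non-coding RNA genes and 9.74% in pseudogenes. The 2.15% is therefore not a like-for-like background for non-coding loci. The median of the 321 loci was -0.13, but it was 0.015 after median-of-ratios scaling, 0.15 without control library s1 and -0.35 without control library s2. Within 20 kb, the window that holds Gm48565, 38 of 989 (3.84%) had a difference of at least 1. Across 818 pairs in that window, the difference of the locus and that of the coding gene had a Pearson r of 0.12, a description of pairs that share the same 6 libraries. Only 1 other locus past a heat shock gene had a mean of at least 1, 1110038B12Rik, a non-coding RNA 3965 bases past the end of Hspa1b. It was at 97.0 and 140 in the control libraries and at 153 and 139 after 60 min, a difference of 0.32 where the Hsp70 gene Hspa1b had 7.81. The values of that locus overlapped between the groups. Gm8696, a pseudogene 1724 bases past Hspa1b that did not reach the minimum mean, was at 0.614 and 0.657 in the control libraries and at 1.735 and 1.91 after 60 min, with no overlap.

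Head-to-head pairs gave the same frame for Gm10616. In 379 pairs of a non-coding locus and a coding gene that start within 1 kb of each other on opposite strands, 6 loci (1.58%) had a difference of at least 1 at 60 min, a smaller share than the 2.15% of all genes. In 2 of these 6 the coding gene had a lower value, in a comparison where 37.3% of all genes had a higher one. They were Gm10616 with Polg and Gm31510 with the hydrolase gene Abhd2. Gm31510 was listed at 0 and 0.660 in the control libraries and at 5.45 and 1.38 after 60 min, with Abhd2 at a difference of -0.22. Another 2 non-coding loci, besides Gm10616, hold a RefSeq tRNA gene in an exon. Gm48356 was at 0.555 and 0.376 in the control libraries and at 2.00 in both 60 min libraries, a difference of 1.04. Gm17494 was at 7.24 and 3.96 against 5.46 and 4.40, a difference of -0.11. The 3 loci with a tRNA thus had differences of 5.00, 1.04 and -0.11, and both the pairs and the tRNA loci were picked after the values of Gm10616 were seen.

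The heat shock element, the binding motif of Hsf1, was searched for on both strands of RefSeq promoter windows as 3 inverted repeats of GAA and TTC, each 2 bases from the next. It occurs in 198 of 32851 windows (0.603%) and both windows of Hsph1. These letters are not in the window of Polg printed above, nor in those of Sfpq, Fanci, Hspa1a or Hspa1b. Hspa1a and Hspa1b nonetheless had differences of 7.965 and 7.81 at 60 min. A window without these letters therefore cannot decide whether Hsf1 acts on a gene. No window of Hspa8 or Zmym1 was searched.

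Gm12941 (ENSMUSG00000084088), like Gm10616, had a higher signal already after 15 min. Unlike that of Gm10616, its mean was not higher still after 60 min. Gm12941 was at 6.89 and 8.13 in the control libraries, at 34.15 and 34.2 after 15 min, and at 27.3 and 35.3 after 60 min. Both heated groups lay above the control and overlapped each other. The group means were 7.51 ± 0.873, 34.2 ± 0.0641 and 31.35 ± 5.66 (SD, n = 2 each), or 4.55-fold the control at 15 min and 4.17-fold at 60 min. The differences from control were 2.05 and 1.92, ranks 44 and 102 of all genes tested, and that between 60 and 15 min was -0.13.

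Gm12941 is an unspliced locus of 220 bases on the plus strand of chromosome 4, in an intron of the non-coding gene Gm12940 (none of its exons overlaps it). It lies 9370 bases past Sfpq, which encodes a splicing factor of nuclear paraspeckles, and 492 bases from Zmym1 on the other strand. RefSeq gives Sfpq a longer extent that includes it. Sfpq was at 870 and 633 in the control libraries, 1088 and 779 after 15 min, and 1107 and 865 after 60 min, with groups that overlapped (0.40 at 60 min, limma adjusted p = 0.784). Gm12940 was at 15.8 and 17.8, at 17.5 and 22.4, and at 18.2 and 21.5 (0.22 at 60 min, limma adjusted p = 0.857). Gm12941 was 43.6% and 45.7% of Gm12940 in the control libraries, 195% and 153% after 15 min, and 151% and 165% after 60 min. Its share of the Sfpq signal was 0.793% and 1.28%, then 3.14% and 4.40%, then 2.47% and 4.09%. Zmym1 was at 16.1 and 14.4 in the control libraries and at 20.6 and 21.7 after 60 min (0.45, limma adjusted p = 0.629). The pseudogene Gm12944, 9660 bases downstream, was at 2.05 and 0.882 in the control libraries and at 1.37 and 1.95 after 60 min (0.14, limma adjusted p = 0.938).

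The whole Gm12941 transcript is printed here from the GENCODE M21 sequences, 5′ to 3′, since its short length may bear on how its signal was counted, which was not tested. None of its 190 words of 31 bases occurs in another gene's transcript. Its closest match is Cdc42se1, a small effector of the Cdc42 GTPase, at 78.4% identity over 111 bases. Cdc42se1 was at 52.2 and 65.7 in the control libraries, 64.3 and 68.1 after 15 min, and 46.15 and 38.6 after 60 min, an order of the groups that is not that of Gm12941. No base is in capitals.
Gm12941: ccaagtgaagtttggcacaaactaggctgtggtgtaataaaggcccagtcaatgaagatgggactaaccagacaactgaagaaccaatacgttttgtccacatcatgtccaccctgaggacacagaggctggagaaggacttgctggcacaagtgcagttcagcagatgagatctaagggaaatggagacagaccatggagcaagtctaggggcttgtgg

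Gm14190 (ENSMUSG00000078276) was listed at 0 in both control libraries and in both 15 min libraries. After 60 min it was at 7.90 and 8.27, a mean of 8.09 ± 0.263 (SD, n = 2). The 60 min libraries therefore stood apart from the other 4, and no fold is given against groups listed at 0. The difference was 3.18 on the log2(signal + 1) scale, rank 16 of all genes tested, and its size depends on the added 1.

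Gm14190 has 153 bases on the minus strand of chromosome 11, and it belongs to a group of similar copies related to keratin-associated protein genes, which encode hair matrix proteins. Its closest copy, the pseudogene Gm14193, is 96.1% identical over all 153 bases with 6 mismatches, and both are printed 5′ to 3′ with the differing bases in capitals.
Gm14190: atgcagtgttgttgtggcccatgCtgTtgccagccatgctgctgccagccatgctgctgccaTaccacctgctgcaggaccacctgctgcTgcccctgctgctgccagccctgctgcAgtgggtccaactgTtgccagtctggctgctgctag
Gm14193: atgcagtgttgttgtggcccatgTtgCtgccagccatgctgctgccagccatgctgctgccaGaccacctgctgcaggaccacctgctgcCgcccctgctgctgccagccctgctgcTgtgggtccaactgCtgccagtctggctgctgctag

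Only 5 of the 123 words of 31 bases in Gm14190 (4.07%) also occur in Gm14193, with the mismatches spread along the sequence. Gm14193 and the next copies Gm14188 (90.4% identical over 135 bases) and Gm14186 (84.8% over 138) were listed at 0 in all 6 libraries. Krtap4-8, a keratin-associated gene with 79.4% identity, ran from 0.0581 to 1.27 over the libraries with its highest value in control library s1. How the counting shared out reads among these copies was not tested, so the signal of Gm14190 is uncertain. A gene of this length is barely longer than the 100-base reads, and how its length was scaled is not given in the sources used here. Of its neighbours within 20 kb, the pseudogene Gm11557 ran from 0.166 to 0.741 over the libraries, under the minimum mean for the test, and 4930415H17Rik was listed at 0 in all 6.

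Over the 6 libraries, the 5 genes fell into different company. Among 378 genes that had a mean of 5 or more and a difference of at least 1 in either direction, the genes with profiles most like that of Gm48565 included the U3 small nucleolar RNA Rnu3a (Pearson r = 0.993), the inducible Hsp70 genes Hspa1a (0.989) and Hspa1b (0.984), and Kank3 (0.980). Those most like Gm14190 included Rnu3a (0.999), Hspa1a (0.995), Hspa1b (0.991) and Gm48565 itself (0.990). These are genes that stood higher in the 60 min libraries alone or nearly so. Rnu3a was at 41.4 and 58.9 after 60 min and listed at 0 in each of the 4 other libraries. Hspa1a was at 2.59 and 1.53 in the control libraries, 4.92 and 2.87 after 15 min, and 794 and 713 after 60 min.

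The profile of Gm10616 was instead most like Gm43332 (0.985), the mitochondrial tRNA methylation factor Trmt10c (0.979), the Hsp90 gene Hsp90aa1 (0.976), Thap2 (0.975) and the mitochondrial chaperonin gene Hspe1 (0.974), which were intermediate at 15 min. Hsp90aa1, for example, had means of 876, 1219 and 2215. Those most like Polg included the small nucleolar RNA Snora57 (0.989), the p53 target Bbc3 (0.986), the linker histone gene Hist1h1c (0.984) and Wdr81 (0.981), all lower at each time. Bbc3 had means of 22.3, 13.1 and 7.20. Gm12941 had the loosest company, Gm48163 (0.951), the coregulator Cited1 (0.946), Gm26596 (0.930), Zfp965 (0.921) and Gm4737 (0.912), of which Cited1 had means of 2.92, 7.18 and 7.18. With 6 libraries in 3 groups, each r rests on 3 group levels and is a description.

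Gm10616 and Gm48565 were set beside the other loci of their class as a description, since their rises chose them and Gm48565 reached the minimum mean through its 60 min libraries. Of 1281 TEC loci tested, 38 (2.97%) had a difference of at least 1 at 60 min and 25 a difference of -1 or less, with 35.5% higher and a median of -0.13. Over all genes tested, 2.15% had a difference of at least 1 at 60 min, with 37.3% higher and a median of -0.12. At 15 min 7 of the 1281 (0.546%) had a difference of at least 1, Gm10616 among them, against 1.15% of all genes. In coding genes the share with at least 1 at 60 min was 0.399%, in long non-coding RNA genes 2.06% and in pseudogenes, the class of Gm12941, 9.74%. More genes of each of these classes lay at -1 or less. The counts were 240 against 59 for coding genes, 108 against 69 for long non-coding RNA genes and 191 against 183 for pseudogenes. These shares were read over genes that passed the minimum mean, and were not compared by a test.

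**Figure D4:**
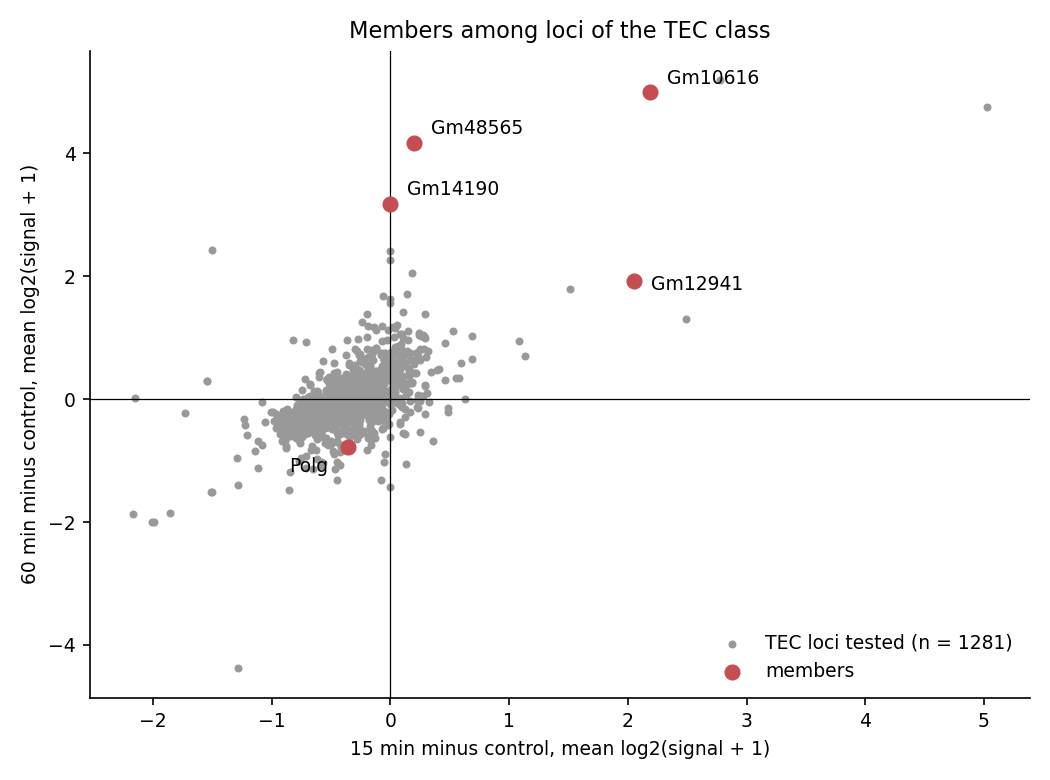
Difference from control at 15 min (horizontal) and 60 min (vertical) in mean log2(signal + 1), for 1281 TEC loci (grey) and the 5 genes (red). Gm10616 at 2.19 and 5.00 and Gm48565 at 0.20 and 4.18 were chosen for these rises, and Polg lies below 0 on both axes. The median of the TEC loci is -0.13 at 60 min. Among them AC162182.2 reaches 5.19 at 60 min, with control values listed at 0 and 21.2.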

How the data were processed

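Per the labels' protocols, total RNA was depleted of ribosomal RNA and read single-end at 100 bases. Per the submitters' processing notes, kallisto and sleuth were used with build GRCm39, with versions, annotation release and strand not given in the sources used here. The authors deposited a normalised signal per gene, whose column totals show a further factor per library beyond TPM, and the depth is unknown. Columns were mapped to groups only, so s1 and s2 are names, and no label says that libraries came from separate cultures, so p-values measure only the spread between these libraries.

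Values were taken as log2(signal + 1). limma 3.58.1 in R 4.3.3, with a mean-variance trend, was fitted to 21954 genes with a mean of at least 1 and all 6 libraries with group as the term (3 residual degrees of freedom, two-sided, Benjamini-Hochberg at 0.05), and was tested on simulated data. Identifiers were matched for 52028 of 55538 genes in GENCODE M21, on build GRCm38, so no coordinates are given. RefSeq supplied tRNA genes and promoters.

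The 5 genes and all lists were chosen with earlier results of these data known. Named were the 5 genes, annotated genes within 20 kb, the 5 genes most like each one, loci past heat shock genes with a mean of at least 1, and the 4 most abundant genes of each list. Some genes that the rule names are not reported here. Polg2, Twnk, Polrmt, Tefm, Top3a, Mterf2, Tfb2m, Gm8696, head-to-head pairs, tRNA loci, look-alike copies and the loci of other observations were chosen after their values were seen. Alternatives were pseudocounts of 0.1 and 5, no filter, median-of-ratios scaling, a replicate block, leaving out each library, and other downstream windows.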

Additional observations from a re-analysis of the deposited data

How the results depend on the processing

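The number of genes passing limma was 9 between 60 min and control, 0 between 15 min and control and 4 between 60 and 15 min. Between 60 min and control it was 5 with a pseudocount of 5 and 5 with no filter. Median-of-ratios scaling gave 28, 7 and 34. Leaving out 1 library gave 0 to 146 between 60 min and control, 0 to 216 between 15 min and control and 0 to 2 between 60 and 15 min. Without control library s1 or s2 the counts were 48 and 146 at 60 min and 41 and 216 at 15 min, both 0 between 60 and 15 min, and 60 min s1 or s2 left out gave 0. A lone library is then assumed to vary like the other groups. With the suffix as a replicate block the counts were 8, 0 and 4. Genes at an unadjusted p under 0.05 by limma were then 2758, 1878 and 1972, against 1830, 868 and 1360 without the block. Deviations of libraries with the same suffix had a Pearson r of 0.0786, 0.102 and 0.224 for the 3 group pairs, all positive. No label says that the suffix pairs libraries, so it was not taken to pair them.

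With pseudocounts of 0.1 and 5 the 60 min difference was 5.35 and 2.59 for Gm48565, 5.75 and 3.58 for Gm10616 and 6.35 and 1.39 for Gm14190. It exceeded that of the neighbour by 4.23 and 1.47 for Gm48565 and by 6.54 and 4.30 for Gm10616. At 15 min Gm10616 had 2.83 and 1.17. With a pseudocount of 5, Polg had -0.72 and Gm12941 1.53 at 60 min and 1.65 at 15 min. Median-of-ratios scaling gave Polg -0.575 at 60 min and -0.021 at 15 min, and Gm12941 2.36 at 15 min. Leaving out 1 library gave 3.79 to 4.56 for Gm48565, 4.68 to 5.31 for Gm10616, -0.81 to -0.74 for Polg, 3.15 to 3.21 for Gm14190 and 1.74 to 2.10 for Gm12941 at 60 min, and a median of -0.35 to 0.15 for loci within 5 kb of a coding gene. The cause of these shifts was not tested beyond the change of setting itself. Depth is unknown, so values near 0 cannot be told from undetected ones.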

Other observations

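Among TEC loci with a difference of at least 1 at 60 min, 19 had a 60 min mean of at least 5 and both 60 min values above both control values. The 19 include Gm10616 and Gm48565. They also include Gm47025, at 1.5e-06 and 27.3 after 60 min, so its higher mean rests on 60 min library s2 alone. Of the 19, 10 overlap a coding gene on the same strand, 4 lie within 20 kb past one and 5 have none that near. The largest difference was that of AC162182.2, at 5.19, listed at 0 and 21.2 in the control libraries, 13.1 and 72.8 after 15 min, and 216 and 136 after 60 min. Its 2 control values differed more than those of any of the 5 genes described above.

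Several of the other loci lie inside genes of neuronal adhesion and guidance. Gm45258, within the cadherin gene Cdh11, was at 0.912 and 0.871 in the control libraries, 1.09 and 1.20 after 15 min, and 5.67 and 8.25 after 60 min. Cdh11 itself had a difference of -0.0093. Gm45073, Gm45074 and E230020D15Rik all overlap Efnb2, which encodes ephrin-B2, and had differences of 1.70, 1.13 and 1.07 where Efnb2 had 0.38. Loci of 1 host gene share their source and are not separate cases. Gm43362, within the splicing factor gene Srsf11, had a difference of 1.39 against 0.66 for Srsf11. These loci were chosen for their values, so no test is given.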
